A study of Mus musculus with 2 samples.

Results

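The genes described here are 10 of the 32285 counted, all known mainly from neurons: Grin2b, Gria1, Nxph1, Myt1l, Kcnh8, Elavl3, Uchl1, Lypd6b, Dgkb and Hs3st5. They were picked from these libraries because they led clusters of epiblast cells in E7 mouse embryos. Their high level in the epiblast is therefore what selected them, and it is given as a description with no test. What is compared is how much of each gene epiblast cells held before neural fate, and how that amount differed with loss of Yap1, the transcriptional co-activator held back by the Hippo pathway. The Yap1 cKO embryos carried Sox2-Cre and 2 floxed Yap1 alleles. The control embryos are labelled WT, and the paper's account of the sequenced embryos gives them as littermates with Sox2-Cre and 1 floxed allele. By that account both groups carried Cre. The paper's section on mouse strains instead describes littermate controls with 2 floxed alleles and no Sox2-Cre. Sox2-Cre acts in the epiblast and its descendants, and extraembryonic tissue is not its target. A pool of 4 control embryos and a pool of 3 Yap1 cKO embryos at embryonic day 7 were each made into 1 single-cell library with 10x 3′ chemistry, so genotype and library cannot be told apart and the embryos of a pool cannot be separated.

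The epiblast is the pluripotent layer that gives rise to the whole embryo. Its cells either pass through the primitive streak to make mesoderm and endoderm or remain as ectoderm, part of which becomes the neural plate. In neurons, glutamate opens NMDA and AMPA receptors at synapses, neurexins and their ligands join the sides of the synapse, and voltage-gated potassium channels reset the membrane. A transcript count says nothing of protein or of a working receptor.

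The libraries held 1829 control and 1897 Yap1 cKO barcodes. Of these, 789 and 862 cells passed the filters, with medians of 75678 and 80676 unique molecular identifiers (UMIs), and no barcode was shared among them. Both libraries are labelled female, yet 407 control and 134 cKO cells were Y-bearing, with at least 2 UMIs of Y-linked genes and no Xist UMI. Epiblast-like cells numbered 217 in the control library and 179 in the cKO library, in 2 clusters (numbers 2 and 5) where all 10 epiblast markers were raised. The 10 genes and the related lists given here were kept out of the features used for clustering. Yap1 itself was at 29.5 UMIs per 1000000 UMIs of the population (CPM) in control epiblast-like cells, from 512 UMIs, and at 1.32 CPM in those of the cKO, from 24.

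RefSeq promoter windows (GRCm38.p6, 250 bases before to 50 after a start) were found for 7 of the 10 genes: Nxph1, Myt1l, Kcnh8, Elavl3, Uchl1, Dgkb and Hs3st5. The windows of the 6 genes with a single RefSeq start are shown. These genes range from Nxph1, with the lowest ratio of cKO to control among the 10, to Dgkb, with the highest. Other starts may exist, since the annotated Dgkb gene begins upstream of its window, at 37817726. YAP1 reaches DNA through TEAD factors, and the octamer is read by POU factors such as the pluripotency factor POU5F1. Capitals mark the TEAD core GGAATG as read on either strand, and the octamer ATGCAAAT was in none of the windows shown.
Nxph1, chr6:8949769-8950068, plus strand: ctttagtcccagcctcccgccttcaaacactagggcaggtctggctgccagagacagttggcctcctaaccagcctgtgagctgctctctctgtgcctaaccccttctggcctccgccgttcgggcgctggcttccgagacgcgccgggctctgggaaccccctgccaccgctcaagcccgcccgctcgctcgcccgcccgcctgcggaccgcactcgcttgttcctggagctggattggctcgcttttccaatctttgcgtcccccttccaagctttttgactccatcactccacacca
Kcnh8, chr17:52602459-52602758, plus strand: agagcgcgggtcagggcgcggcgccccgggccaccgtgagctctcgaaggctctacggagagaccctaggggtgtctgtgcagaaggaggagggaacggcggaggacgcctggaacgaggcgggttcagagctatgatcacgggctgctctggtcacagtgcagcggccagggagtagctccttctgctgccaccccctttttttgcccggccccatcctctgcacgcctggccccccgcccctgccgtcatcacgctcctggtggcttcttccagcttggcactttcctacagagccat
Elavl3, chr9:22051974-22052273, minus strand: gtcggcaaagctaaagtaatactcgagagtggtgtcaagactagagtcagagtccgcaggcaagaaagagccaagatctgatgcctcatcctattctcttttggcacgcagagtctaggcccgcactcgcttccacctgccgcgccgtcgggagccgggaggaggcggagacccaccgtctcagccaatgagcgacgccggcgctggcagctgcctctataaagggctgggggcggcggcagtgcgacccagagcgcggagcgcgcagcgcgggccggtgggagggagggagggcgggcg
Uchl1, chr5:66675871-66676170, plus strand: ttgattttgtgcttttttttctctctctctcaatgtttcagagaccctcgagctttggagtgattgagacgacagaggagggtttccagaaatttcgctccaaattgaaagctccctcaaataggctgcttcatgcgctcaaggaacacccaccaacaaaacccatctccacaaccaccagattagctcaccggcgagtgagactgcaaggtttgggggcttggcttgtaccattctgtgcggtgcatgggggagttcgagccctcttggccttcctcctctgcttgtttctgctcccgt
Hs3st5, chr10:36506557-36506856, plus strand: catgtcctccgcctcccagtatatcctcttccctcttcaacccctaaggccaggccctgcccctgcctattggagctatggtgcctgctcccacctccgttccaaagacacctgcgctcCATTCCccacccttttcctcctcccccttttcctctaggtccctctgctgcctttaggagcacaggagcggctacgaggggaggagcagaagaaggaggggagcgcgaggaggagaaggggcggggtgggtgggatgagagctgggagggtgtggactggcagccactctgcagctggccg
Dgkb, chr12:37879924-37880223, plus strand: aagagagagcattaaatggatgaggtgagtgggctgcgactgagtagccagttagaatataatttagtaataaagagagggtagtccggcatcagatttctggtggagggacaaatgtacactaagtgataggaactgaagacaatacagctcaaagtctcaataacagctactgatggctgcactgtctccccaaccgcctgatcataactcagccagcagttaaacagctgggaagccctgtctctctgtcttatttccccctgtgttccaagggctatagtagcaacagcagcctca

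Over all 32851 windows, the TEAD core was found on either strand in 14.7% and the octamer in 1.74%, and the motifs share letters, so that matches may overlap. Hs3st5 alone of the 6 members with a single start held a TEAD core, and none of the 6 held the octamer. Myt1l had 5 starts, of which 1 window held the TEAD core and a different 1 the octamer. A match of letters is no bound site, and its absence covers these windows only. Nxph1, Kcnh8 and Elavl3 had 21, 21 and 29 CpG dinucleotides in their windows, Uchl1 and Hs3st5 had 9 each and Dgkb had 3, beside a median of 7 over all windows.

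Summed over the 10 genes, control epiblast-like cells stood at 317 CPM (309 to 326) and cKO epiblast-like cells at 266 CPM (259 to 274), where the brackets here and for all CPM values are exact 95% intervals for counting error. In primitive streak-like cells the sum was 93.8 CPM for control and 94.5 for cKO. In nascent mesoderm-like cells it was 5.05 and 17.8 CPM. The genes were thus highest in the epiblast, lower in the streak and lower again in mesoderm, in both libraries. Between 2.94 and 5.88 CPM were found in the cardiac and lateral mesoderm-like, blood progenitor-like and extraembryonic ectoderm-like and endoderm-like cells of either library, which is the low background for reading the epiblast levels. In node and axial mesendoderm-like cells the sum was higher, 56.1 and 52.9 CPM. Lypd6b took the largest part of it, at 22.98 and 19.4 CPM, with Uchl1 at 12.1 and 12.97 CPM and Gria1 at 6.57 CPM in the control, near its epiblast-like level, and 1.5 in the cKO. Anterior visceral endoderm-like cells held Lypd6b at 26.6 and 19.7 CPM. In both of these small populations as many markers of a neighbouring type as of their own were raised.

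**Figure D1:**
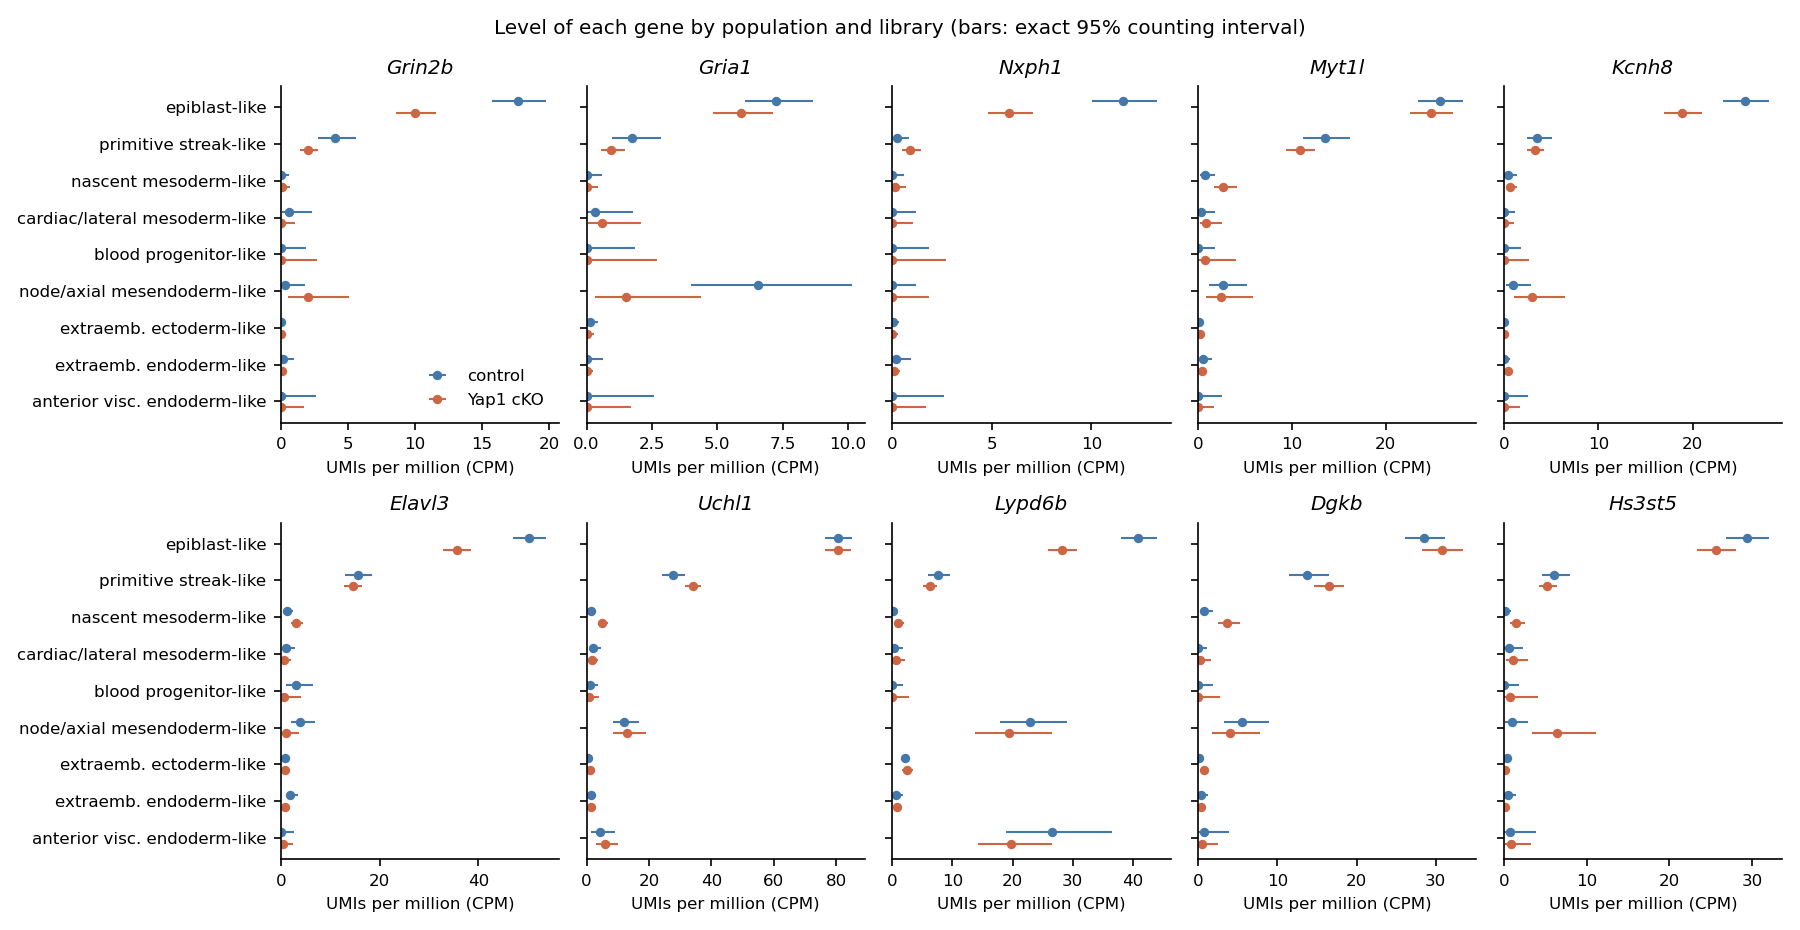
Level of each gene in CPM (horizontal axis) in the 9 populations (vertical axis), with control in blue and Yap1 cKO in orange. Points are sums over the cells of 1 library, and bars are exact 95% intervals for counting error. All 10 genes have their highest point in epiblast-like cells, and Lypd6b also reaches 19.4 to 26.6 CPM in node and axial mesendoderm-like and anterior visceral endoderm-like cells.

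Among the glutamate receptor genes, Grin2b was lower in the cKO library and Gria1 could not be distinguished from the control. Grin2b (ENSMUSG00000030209, chromosome 6, 135713233 to 136173511, minus strand) encodes an NMDA receptor subunit that binds glutamate. Grin2b counted 306 UMIs in the control library, 17.6 CPM (15.7 to 19.7), and 181 in the cKO library, 9.98 CPM (8.58 to 11.6). These intervals were apart, and the ratio of cKO to control was 0.566 (0.468 to 0.682). Gria1 (ENSMUSG00000020524, chromosome 11, 57011387 to 57330244, plus strand) encodes a pore-forming AMPA receptor subunit. Gria1 counted 126 UMIs in the control library, 7.27 CPM (6.05 to 8.65), and 107 in the cKO library, 5.90 CPM (4.84 to 7.13). Here the intervals overlapped and the ratio was 0.812 (0.622 to 1.06), so no difference was detectable at this depth.

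The surface and secreted partners were both lower in the cKO library. Nxph1 (ENSMUSG00000046178, chromosome 6, 8948431 to 9249032, plus strand) encodes neurexophilin 1, a secreted ligand of neurexins. Nxph1 counted 201 UMIs in the control library, 11.6 CPM (10.04 to 13.3), and 106 in the cKO library, 5.85 CPM (4.79 to 7.07). Its ratio, 0.504 (0.395 to 0.641), was the lowest of the 10, with the intervals apart. Lypd6b (ENSMUSG00000026765, chromosome 2, 49787688 to 49948849, plus strand) encodes a membrane-anchored protein of the Ly6 family that modulates nicotinic acetylcholine receptors. Lypd6b counted 710 UMIs in the control library, 40.9 CPM (37.99 to 44.1), and 512 in the cKO library, 28.2 CPM (25.9 to 30.8). The intervals were again apart, at a ratio of 0.690 (0.615 to 0.774).

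The potassium channel was lower, whereas the lipid kinase and the sulfotransferase had CPM intervals that overlapped those of the control. Kcnh8 (ENSMUSG00000035580, chromosome 17, 52602709 to 52979194, plus strand) encodes a voltage-gated potassium channel of the ether-a-go-go family. Kcnh8 counted 443 UMIs in the control library, 25.6 CPM (23.2 to 28.04), and 342 in the cKO library, 18.9 CPM (16.9 to 20.97). With no overlap of the intervals, its ratio was 0.738 (0.639 to 0.852). Dgkb (ENSMUSG00000036095, chromosome 12, 37817726 to 38634239, plus strand) encodes a diacylglycerol kinase, which turns diacylglycerol into phosphatidic acid. Dgkb counted 495 UMIs in the control library, 28.5 CPM (26.1 to 31.2), and 558 in the cKO library, 30.8 CPM (28.3 to 33.4). It had the highest ratio of the 10, 1.08 (0.954 to 1.22), which includes 1. Hs3st5 (ENSMUSG00000044499, chromosome 10, 36506814 to 36834397, plus strand) encodes a sulfotransferase that modifies heparan sulfate chains. Hs3st5 counted 509 UMIs in the control library, 29.4 CPM (26.9 to 32.02), and 464 in the cKO library, 25.6 CPM (23.3 to 28.03). The intervals overlapped, although that of the ratio, 0.872 (0.767 to 0.991), ended just below 1.

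Of the genes that act inside the cell on transcripts and proteins, Elavl3 alone was lower with its intervals apart. Elavl3 (ENSMUSG00000003410, chromosome 9, 22015005 to 22052023, minus strand) encodes an RNA-binding protein found early in neurons. Elavl3 counted 871 UMIs in the control library, 50.2 CPM (46.95 to 53.7), and 646 in the cKO library, 35.6 CPM (32.9 to 38.5). Its ratio was 0.709 (0.640 to 0.786). Myt1l (ENSMUSG00000061911, chromosome 12, 29528384 to 29923213, plus strand) encodes a zinc finger transcription factor of neurons. Myt1l counted 446 UMIs in the control library, 25.7 CPM (23.4 to 28.2), and 449 in the cKO library, 24.8 CPM (22.5 to 27.2). The levels overlapped, with a ratio of 0.963 (0.843 to 1.10). With cells thinned to equal depth Myt1l was lower in the cKO, at a mean of 0.874 UMIs a cell beside 1.04 in the control. Uchl1 (ENSMUSG00000029223, chromosome 5, 66676091 to 66687234, plus strand) encodes a ubiquitin hydrolase abundant in neurons. Uchl1 counted 1396 UMIs in the control library, 80.5 CPM (76.3 to 84.8), and 1460 in the cKO library, 80.5 CPM (76.5 to 84.8). The ratio of Uchl1 was 1.0 (0.929 to 1.08), an interval that covers counting error only. With cells thinned to equal depth its ratio was 1.14, outside that interval, so the interval does not bound the difference between genotypes.

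In all, 5 of the 10 genes (Nxph1, Grin2b, Lypd6b, Elavl3 and Kcnh8) were lower in the cKO library with intervals that did not overlap, and 2 of these, Nxph1 and Grin2b, were lower past 1.5-fold. None of the 10 was higher by either measure. Over all 14299 genes that reached 20 UMIs in the epiblast-like population, 5.64% were lower and 4.37% higher past that fold. Every one of the 10 reached 100 UMIs, and over all 10885 genes that did so the shares were 1.93% and 1.35%. By intervals that did not overlap, 12.8% of those 10885 genes were lower and 8.22% higher. The median log2 ratio was -0.37 for the 10 genes and -0.06 for all 14299. Nearest to the limit of 1.5-fold were Grin2b inside it at 0.566 and Lypd6b outside it at 0.690. With 1 library a genotype these differences have no replicate check, so no p-value is given, and the intervals hold counting error only. In summed counts, fewer cells with a transcript and less RNA per cell cannot be told apart.

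**Figure D2:**
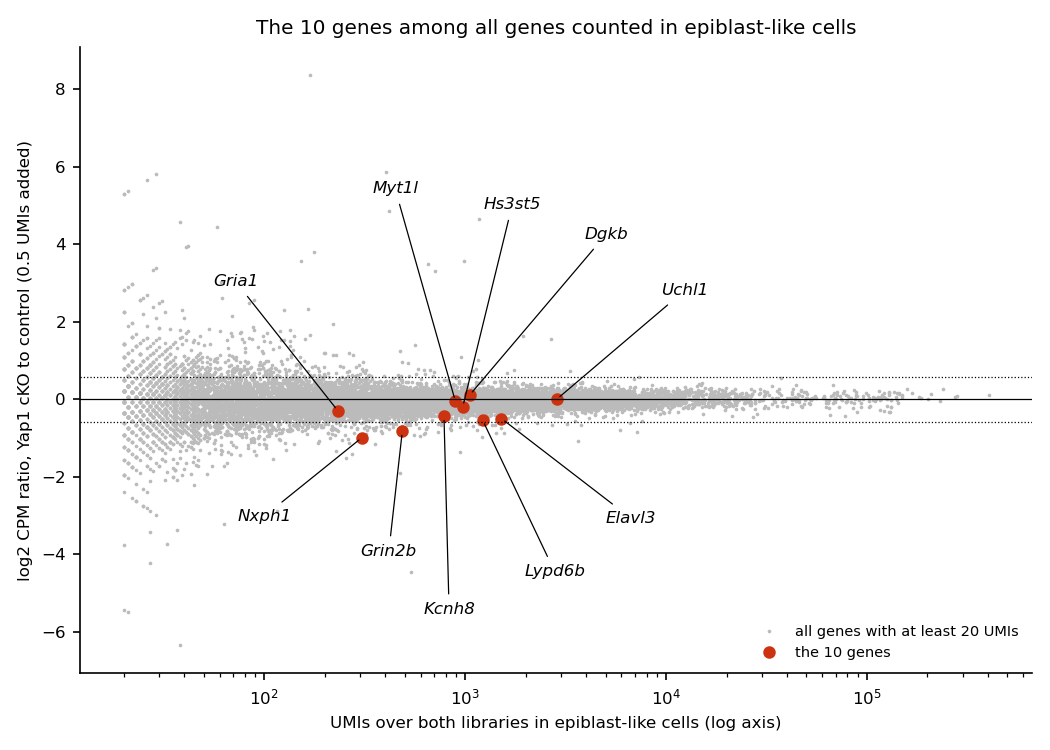
Log2 ratio of CPM in Yap1 cKO to control epiblast-like cells (vertical axis, 0.5 UMIs added to each count) against the UMIs of the gene over both libraries (horizontal log axis), for the 14299 genes that reached 20 UMIs (grey) and the 10 genes (red). Dotted lines mark 1.5-fold. Nxph1 and Grin2b lie below the lower line, the other 8 genes between the lines.

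The epiblast-like cells of the libraries differed in genes of the streak. Streak markers summed to 80.5 CPM in those of the control and 189 CPM in those of the cKO, with 7 and 9 of 9 markers at 1 UMI or more. With each cell thinned to 38000 UMIs, which left out 4 cells of each library, no UMI of Fgf8, T or Mixl1, genes of the streak and the epiblast beside it, was found in 125 of 213 control cells (58.7%, 51.8 to 65.4) and 57 of 175 cKO cells (32.6%, 25.7 to 40.05). Fgf8 without T or Mixl1 was found in 86 of 213 and 111 of 175 cells, and T or Mixl1 in 2 and 7. A smaller share of cKO cells was thus free of these stage genes, and the ratios were taken again within each class. The classes rest mostly on Fgf8, which was itself higher in the cKO. It stood at 27.8 CPM in control and 85.7 in cKO cells of cluster 2, and at 22.7 and 67.5 in cluster 5. A later stage and a change of Fgf8 with Yap1 loss cannot be told apart, so cells of a class may differ in stage between libraries.

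Nxph1 was lower in the cKO library in both classes. In cells free of the stage genes it had 132 control and 38 cKO UMIs, a ratio of 0.534 (0.362 to 0.771). In cells with Fgf8 only it had 68 and 67, a ratio of 0.588 (0.413 to 0.836). Grin2b differed more between the classes, with a ratio of 0.795 (0.601 to 1.04) from 182 and 78 UMIs in cells free of the stage genes and 0.481 (0.364 to 0.635) from 119 and 96 in Fgf8-only cells. Its difference was thus past 1.5-fold in the Fgf8-only class and not in the other, the intervals overlapped, and the difference between classes was not tested. Lypd6b stood at 0.610 (0.502 to 0.737) and 0.767 (0.651 to 0.904) in the same order, and Elavl3 at 0.785 (0.668 to 0.920) and 0.708 (0.610 to 0.821), below 1 with the whole interval in both classes. Kcnh8 stood at 0.718 (0.569 to 0.899) and 0.850 (0.690 to 1.05), and Gria1 at 0.649 (0.406 to 1.01) and 0.895 (0.608 to 1.33). Dgkb was higher in cKO cells free of the stage genes, 1.29 (1.07 to 1.55), and level in Fgf8-only cells, 1.02 (0.852 to 1.22).

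Within a single library, Myt1l was lower in Fgf8-only cells than in cells free of the stage genes, both in the control (0.744-fold, 0.607 to 0.908) and in the cKO (0.683-fold, 0.561 to 0.832). Grin2b was lower in Fgf8-only cells of the cKO (0.570-fold, 0.418 to 0.778), and in the control its interval included 1 (0.941-fold, 0.740 to 1.19). Dgkb did likewise, at 0.771-fold in the cKO and 0.976-fold in the control, and so did Elavl3, at 0.816-fold and 0.906-fold. Kcnh8 (0.815-fold, 0.666 to 0.994) and Lypd6b (0.852-fold, 0.729 to 0.995) were instead lower in Fgf8-only cells of the control. In the cKO their intervals included 1 (0.965-fold and 1.07-fold). The sum of the members was at 0.907-fold in the control and 0.875-fold in the cKO. Hs3st5 was level between the classes, at 1.10-fold and 1.01-fold. Nxph1 stood at 0.741-fold (0.545 to 1.0) in the control and 0.816-fold (0.540 to 1.25) in the cKO. Gria1 and Uchl1 had intervals that included 1 in both libraries.

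The pools also differed in sex, with 119 of the control and 34 of the cKO epiblast-like cells Y-bearing and 89 and 136 Xist-bearing. Grin2b stood at 0.422 (0.283 to 0.615) among Y-bearing and 0.642 (0.501 to 0.823) among Xist-bearing cells. Nxph1 stood at 0.535 (0.342 to 0.814) and 0.481 (0.348 to 0.663). Lypd6b stood at 0.487 (0.388 to 0.607) and 0.796 (0.682 to 0.931), the only member whose intervals did not overlap between the sexes, a difference that was not tested. All 3 genes were lower in the cKO library within each sex. Extraembryonic endoderm markers summed to 21.4 CPM in control and 156 CPM in cKO epiblast-like cells, with 8 and 9 of 9 markers found, and without the 3 cKO cells above 200 CPM of visceral endoderm genes Grin2b stood at 0.570 and Nxph1 at 0.513.

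**Figure D3:**
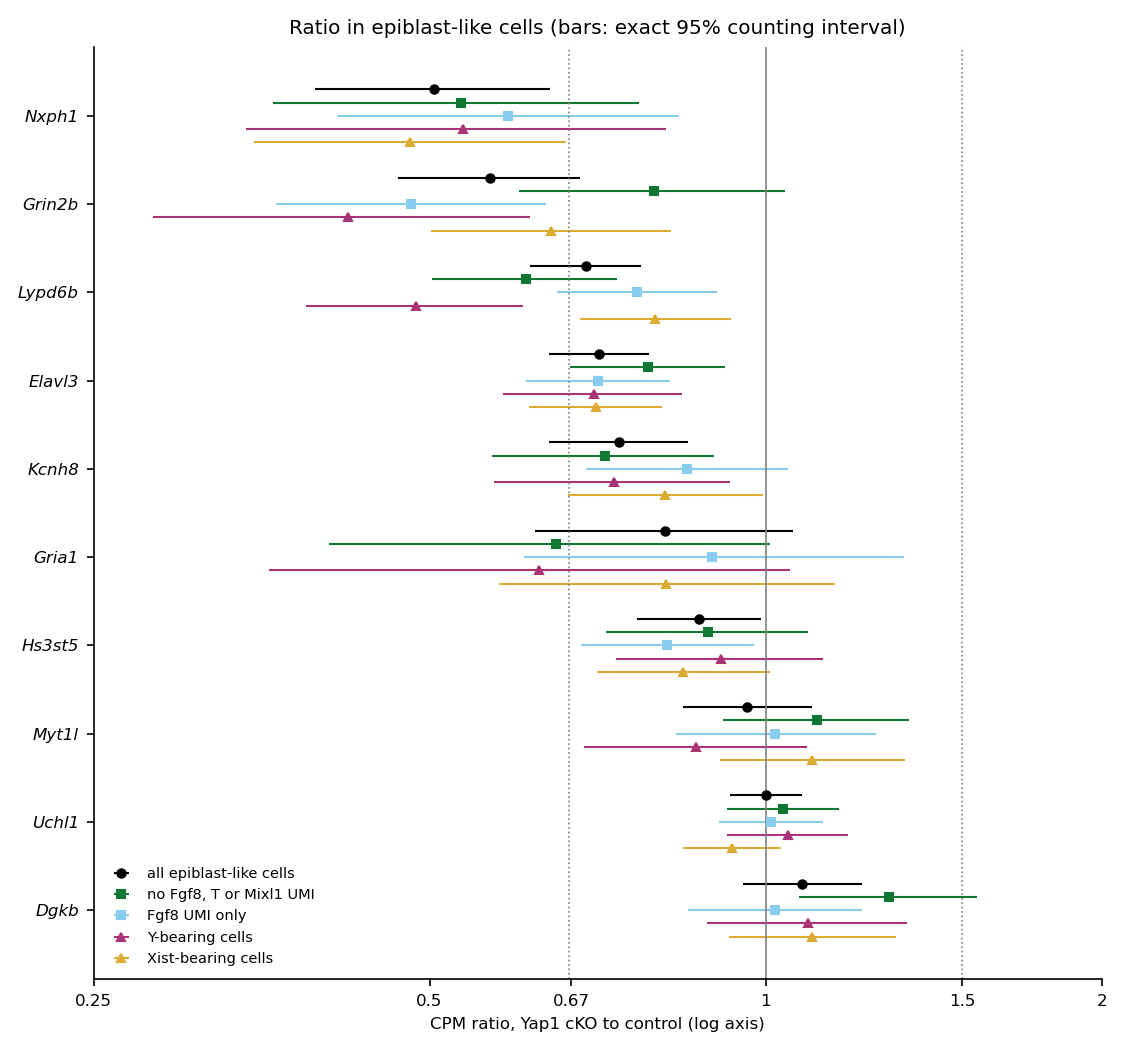
Ratio of CPM in Yap1 cKO to control (horizontal log axis) for each of the 10 genes (vertical axis), ordered by the ratio in all epiblast-like cells (black), with the ratio in cells without Fgf8, T or Mixl1 (green), in Fgf8-only cells (light blue), in Y-bearing cells (magenta) and in Xist-bearing cells (yellow). Bars are exact 95% intervals for counting error, and dotted lines mark 1.5-fold. Nxph1 lies between 0.481 and 0.588 in every class, whereas Grin2b runs from 0.422 to 0.795.

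The epiblast-like clusters held the genes in unequal amounts. The members were picked as leading genes of epiblast clusters in these libraries, so folds between clusters follow in part from that choice and are a description. Hs3st5 was 2.80-fold and 2.14-fold higher in cluster 2 than in cluster 5 in control and cKO cells, and Grin2b 1.96-fold and 2.06-fold. Elavl3 went the other way, at 0.719-fold and 0.782-fold, and Uchl1 was level at 1.01-fold and 0.905-fold. Cells of cluster 5 were shallower, with medians of 62396 and 64005 UMIs beside 80398 and 98370 in cluster 2. Between genotypes, Grin2b had a ratio of 0.561 (0.458 to 0.686) in cluster 2 and 0.533 (0.309 to 0.898) in cluster 5, and Nxph1 0.526 (0.404 to 0.682) and 0.356 (0.169 to 0.700). Gria1 stood at 0.729 (0.547 to 0.970) in cluster 2, whereas cluster 5, with 12 and 17 UMIs, gave 1.51 (0.680 to 3.47).

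Per cell, these transcripts were sparse. At 38000 UMIs a cell, Grin2b was found in 38.03% (31.5 to 44.9) of control and 24.6% (18.4 to 31.6) of cKO epiblast-like cells, and Nxph1 in 24.4% (18.8 to 30.8) and 15.4% (10.4 to 21.6). Without thinning, at median depths of 72018 and 85050 UMIs, the shares were 58.1% and 48.6% for Grin2b and 35.9% and 30.7% for Nxph1. In extraembryonic ectoderm-like cells, at median depths of 84252 and 106990 UMIs before thinning, both genes were found in 0 of 172 control and 0 of 96 cKO thinned cells, which allows shares of up to 1.74% and 3.12%. Elavl3 was found in 78.4% (72.3 to 83.7) and 66.3% (58.8 to 73.2) of epiblast-like cells, Kcnh8 in 49.8% and 40.6%, and Gria1 in 20.2% and 17.1%. Lypd6b was found in 67.6% and 61.7%, beside 11.6% and 10.4% of extraembryonic ectoderm-like cells. Uchl1 was nearly universal, at 92.5% (88.1 to 95.7) and 96.0% (91.9 to 98.4). Dgkb was found in 54.5% and 61.7%, Myt1l in 57.3% and 52.0%, and Hs3st5 in 51.6% and 46.3%.

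In thinned cells the lowest, median and highest Grin2b counts were 0, 0 and 5 UMIs in both libraries. Nxph1 ran from 0 through a median of 0 to 8 in control and 4 in cKO cells, and Uchl1 from 0 through a median of 3 to 8 and 10. The variance over cells was 2.28 and 1.94 times the mean for Nxph1, 1.83 and 2.11 times for Hs3st5, and 1.16 and 1.19 times for Uchl1. Counts in cells were thus more spread than Poisson counting gives, so the intervals of the sums leave out the spread between cells. No single cell held more than 8.49% of a member's epiblast-like UMIs in its library.

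A median of 5 of the 10 genes was found per thinned epiblast-like cell in both libraries. At least 5 were found in 148 of 213 control cells (69.5%, 62.8 to 75.6) and 100 of 175 cKO cells (57.1%, 49.5 to 64.6), intervals that overlap slightly, and no cell held all 10. In primitive streak-like cells the median was 2 in both libraries and in extraembryonic ectoderm-like cells 0. At least 5 were found in 11 of 106 control and 8 of 185 cKO streak-like cells and in 0 extraembryonic ectoderm-like cells of either library, so 5 or more at once was found in most epiblast-like cells and in few streak-like cells.

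**Figure D4:**
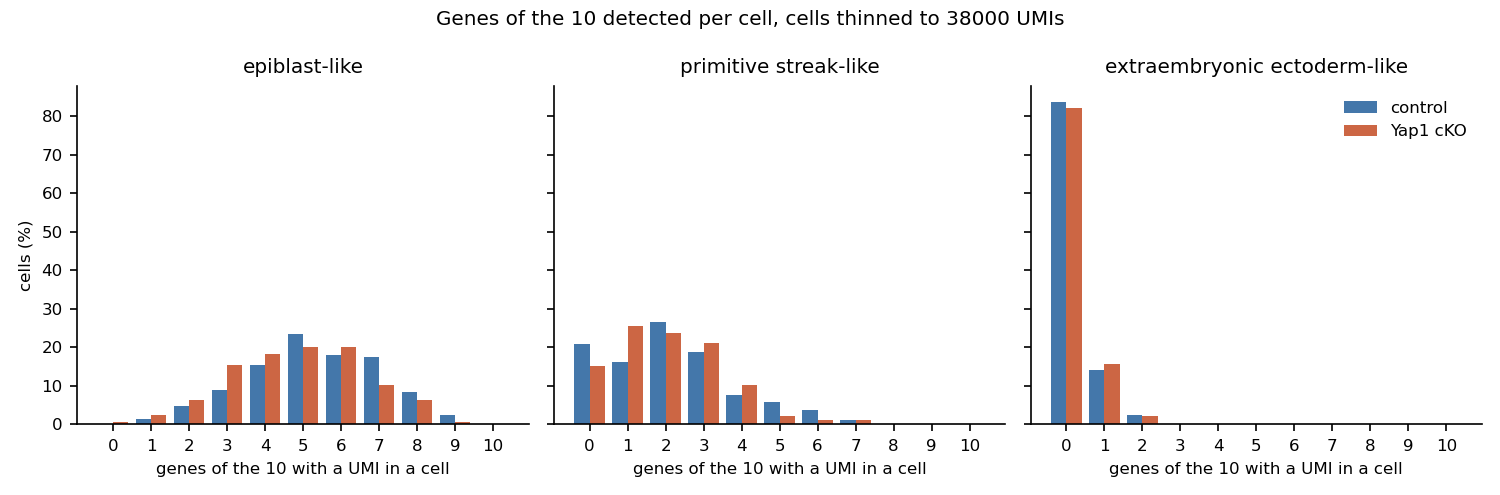
Percent of cells (vertical axis) by the number of the 10 genes with a UMI in the cell after thinning to 38000 UMIs (horizontal axis), in epiblast-like, primitive streak-like and extraembryonic ectoderm-like cells of control (blue) and Yap1 cKO (orange). The medians are 5, 2 and 0 genes in both libraries.

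In primitive streak-like cells (110 control and 194 cKO), the summed genes were level, at a ratio of 1.01 (0.926 to 1.10). Extraembryonic endoderm markers summed to 347 CPM in these cells of the control and 936 CPM in those of the cKO. The streak-like ratios given here include the cells that held them. Grin2b was lower in the cKO, with 35 and 37 UMIs, 4.02 and 2.02 CPM and a ratio of 0.503 (0.308 to 0.823). Gria1, with 15 and 17 UMIs, had a ratio of 0.539 (0.253 to 1.16), which turned to 1.28 when populations were set by marker scores in place of clusters. These 2 were past 1.5-fold among the 9 members that reached 20 UMIs, and none was higher past it, while over all 13906 such genes 6.16% were lower and 5.82% higher. Uchl1 was higher in the cKO, 33.98 CPM (31.4 to 36.8) beside 27.7 CPM (24.3 to 31.4), a ratio of 1.23 (1.06 to 1.43). Dgkb had a ratio of 1.2 (0.966 to 1.49), Elavl3 0.934 (0.757 to 1.16) and Lypd6b 0.822 (0.602 to 1.13), each with 1 inside its interval. Nxph1 was nearly absent, with 2 control and 16 cKO UMIs and a ratio of 3.81 (0.895 to 34.1). Of the other 9 genes, epiblast-like cells of the control held from 1.90-fold (Myt1l) to 7.18-fold (Kcnh8) the streak-like level, and those of the cKO from 1.87-fold (Dgkb) to 6.36-fold (Gria1).

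In nascent mesoderm-like cells the counts were small, and the sum was higher in the cKO. The 10 genes summed to 32 control and 145 cKO UMIs, 5.05 CPM (3.45 to 7.13) beside 17.8 CPM (15.1 to 20.99), with a ratio of 3.53 (2.40 to 5.35). Uchl1 had 9 and 41 UMIs, a ratio of 3.55 (1.70 to 8.31), and Dgkb 5 and 30, a ratio of 4.68 (1.80 to 15.4). Grin2b, Gria1 and Nxph1 had at most 1 UMI in either library, so the higher sum came from the other members. The 10 epiblast markers also summed higher in the cKO among these cells, 529.6 beside 365 CPM, and their part in the ratio was not tested. In node and axial mesendoderm-like cells (37 and 26), Gria1 had 20 and 3 UMIs, a ratio of 0.228 (0.0434 to 0.769), and Lypd6b 70 and 39, a ratio of 0.847 (0.557 to 1.27).

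By the medians of their lists, other genes of the synapse were level between the libraries in epiblast-like cells, though single genes differed. Of 16 other glutamate receptor subunits, 13 reached 20 UMIs, of which 0 were lower and 2 higher past 1.5-fold, with a median log2 ratio of 0.03. The most abundant were the kainate receptor subunit Grik3 (59.5 and 50.7 CPM, ratio 0.853, 0.779 to 0.933), the AMPA receptor subunit Gria4 (50.2 and 47.7 CPM, ratio 0.951, 0.865 to 1.05) and the kainate receptor subunit Grik5 (ratio 1.07, 0.928 to 1.25). Gria3, an AMPA receptor subunit, stood at 1.23 (0.975 to 1.55), an interval that included 1. Of 17 neurexins, neuroligins and partners, which include the receptors of neurexophilins, 9 reached 20 UMIs, 0 were lower and 1 higher, with Nrxn2 at 1.18, Nrxn3 at 0.833 and Nlgn2 at 1.12. Of 19 postsynaptic scaffold and auxiliary genes, 17 reached 20 UMIs, 1 was lower and 3 higher. The median log2 ratio of these 17 was -0.04. Among these, Dlgap2 stood at 1.86 (1.31 to 2.66), Shank2 at 0.672 (0.518 to 0.870) and Dlg2 at 0.794 (0.700 to 0.900). Dlg1 and Dlgap1 were at 0.971 and 1.03. Of 7 other ether-a-go-go channels, 6 reached 20 UMIs and 1 was lower, with Kcnh2, Kcnh5 and Kcnh6 at 1.03, 1.14 and 0.957.

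Relatives of the members inside the cell and genes of neural fate were mostly level or somewhat lower. Of 13 other neuronal RNA-binding proteins, 12 reached 20 UMIs and 0 passed 1.5-fold. Elavl2, a paralog of Elavl3, stood at 63.7 and 62.5 CPM (ratio 0.983, 0.904 to 1.07), Khdrbs3 at 0.833, Rbfox2 at 0.906 and Elavl4 at 0.784. Of 15 Myt1 family and neurogenic factors, which drive the birth of neurons, only 2 reached 20 UMIs, and Insm1, Pou3f2 and Scrt2, the highest of them in the control, stayed under 1 CPM in both libraries. Of 17 neural fate and anterior epiblast factors, 13 reached 20 UMIs, 1 was lower and 1 higher, with a median log2 ratio of -0.16. Pou3f1, Otx2 and Sox11 were the most abundant at ratios of 0.891, 0.854 and 0.897, and Sox3 and Nes stood at 0.797 and 0.838.

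Of 18 neuron structure and vesicle genes, all reached 20 UMIs, 1 was lower and 1 higher. The neurofilament gene Nefm stood at 0.598 (0.504 to 0.708), whereas its partner Nefl was at 1.13 (1.03 to 1.25). Stmn2, Ina and Stmn3 were at 0.913, 1.02 and 1.32. These 18 genes summed to 356 CPM in control and 342 CPM in cKO epiblast-like cells, with none at 0, and to 416 and 349 CPM in streak-like cells, of which Nefl made up 142 and 101 CPM. Of 21 other paralogs, 15 reached 20 UMIs, 0 were lower and 1 higher. Lypd6, a close relative of Lypd6b, stood at 0.727 (0.627 to 0.841) and Lypd1 at 1.69 (1.18 to 2.47), while Uchl3, Elavl1 and Uchl5 were at 1.13, 0.922 and 0.922. None of 10 genes of REST, the repressor of neuronal genes, and its corepressors passed 1.5-fold, with Kdm1a, Hdac1 and Ehmt1 at 0.894, 0.873 and 1.04 and Hdac2 and Rcor1 at 0.824 and 0.821.

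**Figure D5:**
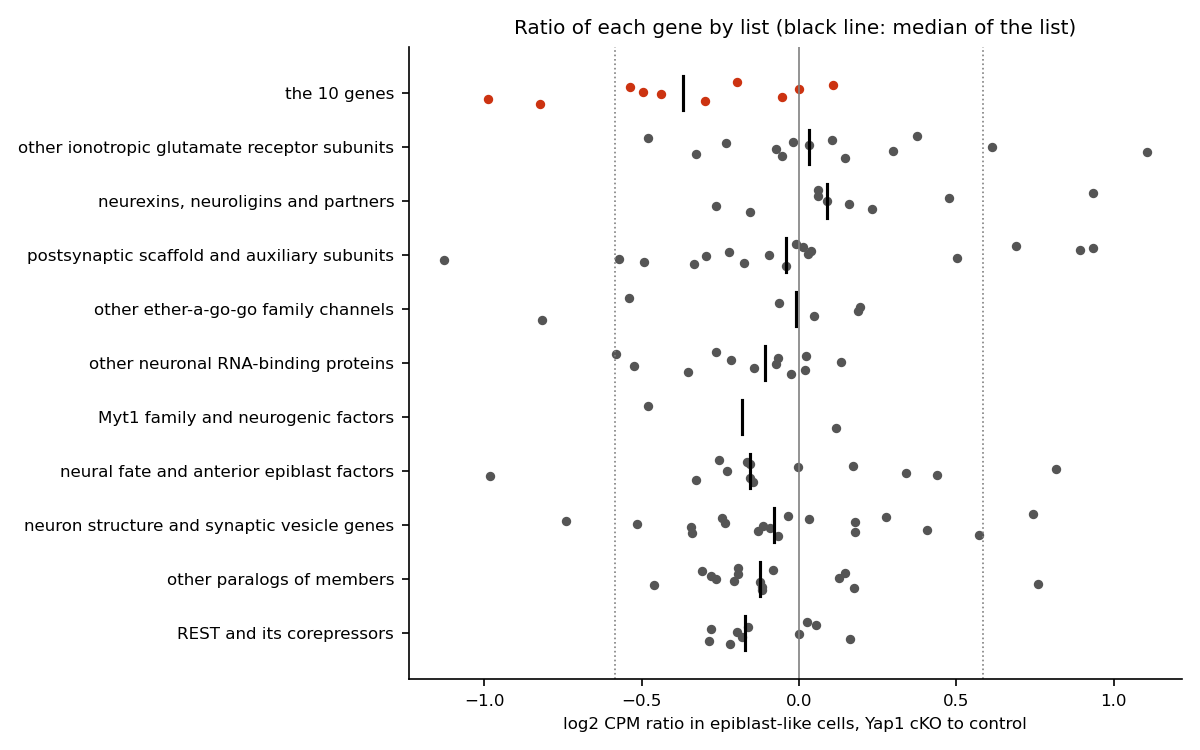
Log2 ratio of CPM in Yap1 cKO to control epiblast-like cells (horizontal axis) for every gene that reached 20 UMIs in each list (vertical axis), with the 10 genes in red, black lines at list medians and dotted lines at 1.5-fold. The median of the 10 genes is -0.37, and the medians of the other lists run from -0.18 to 0.09.

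All 10 genes were chosen as high in the epiblast, so a likeness of their patterns over populations follows from the choice and is given as a description. Over the 17 sums of a population in a library with 20 or more cells, the Pearson r of log2(CPM + 1) with the mean of the other 9 members ran from 0.647 for Lypd6b to 0.970 for Kcnh8, where sums of 1 library share its preparation. Of 14248 other genes that reached 100 UMIs, the 5 closest to the mean of the members were C1ql3 (r = 0.984), a secreted protein of synapses, Apba2 (0.974), a neuronal adaptor protein, Cntnap4 (0.973), a contactin-associated protein of the neurexin superfamily, Adgrv1 (0.970), an adhesion receptor, and Sall2 (0.969), a zinc finger factor. Their ratios in epiblast-like cells were 1.09, 0.957, 0.608, 0.862 and 0.745, of which the last 3 had intervals below 1.

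Most of the 10 genes are very long, and the counting software included intronic reads by default. Their median span was 323 kb and 8 of 10 spanned over 100 kb, beside a median of 24.4 kb over the 14290 genes with a span. Uchl1 (11.1 kb) and Elavl3 (37.02 kb) were the short ones. In epiblast-like cells the 515 genes of 300 kb or more had a median ratio of 0.928, with 8.35% lower and 4.47% higher past 1.5-fold, and the 6293 genes under 20 kb a median ratio of 0.999. Genes of 20 to 100 kb and of 100 to 300 kb had medians of 0.943 and 0.945, so the lower median was not particular to the longest genes. In extraembryonic ectoderm-like cells, where Cre is not meant to act, the longest genes had a median ratio of 0.931. There, genes of 20 to 100 kb stood at 0.933, those of 100 to 300 kb at 0.931 and those under 20 kb at 1.001. Yap1 itself stood at 0.737 (0.626 to 0.867) in the extraembryonic ectoderm-like population, from 422 control and 235 cKO UMIs. The anterior visceral endoderm-like population gave a Yap1 ratio of 0.432 (0.273 to 0.674), from 53 and 35 UMIs in 24 and 28 cells. Both intervals lay below 1 but hold counting error only. Whether Yap1 differed with genotype in these 2 populations was not tested. In extraembryonic endoderm-like cells Yap1 stood at 0.853 (0.714 to 1.02), an interval that included 1. The paper reports similar Yap1 levels in both genotypes for its extraembryonic clusters, from a test over single cells and not from summed UMIs. It also describes extraembryonic tissue of embryos with 2 floxed alleles, control and cKO alike, as likely heterozygous for Yap1, through deletion of the paternal allele. Whether this bears on the ratios given here was not tested. Grin2b (460.3 kb) and Nxph1 (301 kb) lay well below the epiblast-like median of the longest genes, whereas Dgkb (816 kb, the longest of the 10) and Myt1l (395 kb) lay above it. Nxph1, Elavl3 and Dgkb overlap other annotated genes on the same strand, and reads in the overlaps may be left out of their counts.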

How the data were processed

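Single-cell RNA was measured in 1 library of pooled E7 embryos per genotype. The authors ran Cell Ranger 7.1.0 on mm10, per the submitters' processing notes, and the deposited values are raw UMI counts per gene and barcode without normalization. Cells were filtered after the study's methods (at least 5000 genes, at most 10% mitochondrial UMIs, scrublet in scanpy 1.11.5, which removed 2 barcodes per library) and clustered with SCTransform and integration in Seurat 5.3.0 (3000 features, 19 components, resolution 0.8). Clusters took the name of the list with most markers raised 1.5-fold and found in 25% of cells. SoupX and tests between cells were not repeated. UMIs were summed per population and library, and kept cells held 64825950 control and 81465969 cKO UMIs. Intervals are exact at 95% (CPM by Poisson, shares by Clopper-Pearson, ratios by the binomial conditional on both counts) and cover counting error only. The ratio intervals were run on simulated Poisson counts, which hold no further spread between cells, so that check says nothing of such spread in these data. Shares of 0 were limited by 3 counts.

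The members and lists were chosen with earlier results of these data known. Genes named were the 10 members, Yap1, from each list up to 3 with the highest control epiblast-like CPM and up to 2 with the ratio farthest from 1 at 100 UMIs or more, and the 5 genes closest to the members over populations. Some genes that this rule names are not reported here. A cell was Y-bearing from 2 Y-linked UMIs with no Xist UMI, and Xist-bearing from 2 Xist UMIs with no Y-linked UMI. Gene positions are from GENCODE M21 (GRCm38), where each member was found by its Ensembl ID. The alternatives changed cell filters, clustering, scaling, free RNA, weighting, depth, sex and the stage genes found in the cells.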

Additional observations from a re-analysis of the deposited data

Results flagged for a closer look

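In 3 cases a member's interval lay above 1 outside the epiblast while its interval in epiblast-like cells lay below 1, and the difference between the populations was not tested. Elavl3, at 0.709 in epiblast-like cells, stood at 2.44 (1.06 to 6.25) in nascent mesoderm, from 8 control and 25 cKO UMIs. Hs3st5, at 0.872 in epiblast-like cells, stood at 9.35 (1.38 to 399.8) in nascent mesoderm, from 1 and 12 UMIs. In the node and axial mesendoderm-like cluster Hs3st5 stood at 6.58 (1.81 to 36.03), from 3 and 13 UMIs.

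Barcodes with fewer than 5000 detected genes entered no comparison except an alternative with a minimum of 2000 genes, and they too held the 10 genes. Their summed level was 42.5 CPM over the control barcodes and 41.6 CPM over those of the cKO.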

How the results depend on the processing

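The summed ratio of 0.839 was below 1 under every alternative run for it. It moved outside its counting interval to 0.872 with mean CPM per cell, 0.889 with thinned cells, 0.887 in cells free of Fgf8, T and Mixl1, and 0.806 in Y-bearing cells. The count of 2 members past 1.5-fold was 4 in Y-bearing cells and 4 in cluster 5 alone, where Gria1 was higher and the other 3 lower, and 0 at a fold of 2. The share of all genes past 1.5-fold was not taken in these smaller sets of cells. The counts of 4 thus have no background to be read against. Over 20 alternatives, Nxph1 was past 1.5-fold in 20 (0.356 to 0.589) and Grin2b in 19 (0.422 to 0.795), the exception being cells free of the stage genes. Lypd6b was past it in 4 (0.487 to 0.796). Elavl3 (0.675 to 0.785) and Kcnh8 (0.702 to 0.898) were below 1 in all 20 and past it in 0. Gria1 ran from 0.627 to 1.51, and Uchl1 from 0.933 in Xist-bearing cells to 1.14 with thinned cells. With populations set by marker scores in place of clusters, the streak-like ratios turned from 0.539 to 1.28 for Gria1 and from 3.81 to 0.851 for Nxph1, and the cause was not tested. Of 200 epiblast-like ratios of single members, 183 stayed within their intervals and 17 did not. The restrictions to Fgf8-bearing cells and to single clusters were chosen after seeing the data. No paired analysis was possible because each genotype had 1 library. Few UMIs of Grin2b, Gria1 and Nxph1 were counted outside the epiblast, which limits their ratios there.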

Other observations

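Across single epiblast-like cells at equal depth the rank correlations between members were low. Over the 45 pairs of the 10 genes, Spearman's rho ran from -0.10 to 0.28 in 213 control cells, with a median of 0.07, and from -0.12 to 0.28 in 175 cKO cells, with a median of 0.08. Myt1l and Lypd6b gave the highest value in control cells, and Kcnh8 and Dgkb in cKO cells. These values describe sparse counts that share a library and a depth. Counting noise in sparse counts draws rho toward 0, so low values cannot tell whether the members vary together.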
